A study of Mus musculus with 20 samples.

Results

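Cathepsins are the proteases that break down protein inside lysosomes, and the transcripts described here were those of 8 cathepsins, of legumain and of cystatin C. The 10 genes (*Ctsa*, *Ctsb*, *Ctsc*, *Ctsd*, *Ctsh*, *Ctsl*, *Ctss*, *Ctsz*, *Lgmn* and *Cst3*) were taken by symbol from the 16003 genes of a single-cell count table of mouse spinal cord, and all 10 had counts in each of the 6 libraries. Their transcripts were counted as unique molecular identifiers (UMIs, 1 per captured transcript), summed over the cells of a cluster in a library and given as CPM, that is, per 1000000 UMIs of that sum.

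The mice were female C57BL/6J, 8 to 10 weeks old. Chow labelled as holding 1200 ppm PLX5622, or vehicle chow, was given for 2 weeks before surgery and onward to the end point. PLX5622 inhibits the Csf1 receptor, on which microglia depend for survival, and thereby removes most of them. Surgery was a contusion of the cord at T9 (SCI) or a laminectomy alone (sham), and 1 cm of cord was taken at 7 or 28 days post-injury (dpi). The labels of both sham libraries give both days, so that 1 sham library per diet was the reference for both times. Each library pooled the cords of several mice and each condition had 1 library. Differences between libraries therefore have no replicate check and no test was made. Ranges in parentheses are exact 95% intervals, which cover counting error only and not the variation between mice or pools. For CPM and ratios they also leave out the variation between cells, so that they are too narrow where a few cells hold many of the UMIs.

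Cathepsins are made as inactive precursors, sorted to the acidic lysosome and activated there by cleavage, in part by legumain. They fall into cysteine proteases, aspartic proteases and serine carboxypeptidases. Cystatin C is a small secreted protein that blocks cysteine cathepsins outside the cell. Microglia, the resident macrophages of the cord, and the monocyte-derived macrophages (MDMs) that enter it after injury both clear myelin and dead cells through their lysosomes. Many lysosomal genes carry the element CACGTG or the longer TCACGTG near their start, the letters that Tfeb and related factors are known to bind.

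Promoter sequences were looked up for the 10 genes in RefSeq (GRCm38.p6) as 250 bases before and 50 bases after an annotated start. Of the 10 genes, 8 matched, with a pair of starts each for *Ctsa* and *Lgmn*, which made 10 promoters. *Ctsb* and *Ctsh* had no entry. CACGTG, which reads the same on both strands, stood in 4 of these 10 promoters, 1 each of *Ctsa*, *Ctsd*, *Ctsl* and *Lgmn*. It stood in 7.15% of all 32851 promoters of this length. TCACGTG, which overlaps it and was searched on both strands, stood in 3 of the 10 (*Ctsa*, *Ctsd* and *Lgmn*) and in 3.77% of all. GAGGAAGT, the letters of a site for the myeloid factor PU.1, stood on the reverse strand in 2 of the 10 (*Ctsc* and *Ctss*). It stood in 3.2% of all promoters on either strand. TGACTCA, the AP-1 element, was in none of these windows and in 5.20% of all. GGGCGG, searched on both strands, was in 6 of the 10 windows and in 35.7% of all. A match of letters describes the sequence and is not a measured site. The 5 promoters below are shown 5′ to 3′ on the strand of the gene, with (T)CACGTG or the PU.1 letters in capitals. They were chosen with the levels known, to set sequence beside level. *Ctsa* and *Ctsd* hold CACGTG in 2 places each and were higher in microglia at 7 dpi, *Lgmn* holds it too and was lower, and *Ctss* and *Cst3* were lower and hold the PU.1 letters or neither. Among the promoters not shown, *Ctsz* was higher and holds only GGGCGG of the elements searched. *Ctsl*, also not shown, holds CACGTG, and its direction turned with the scaling, as given below.
*Ctsa* chr2:164833523-164833822 (+): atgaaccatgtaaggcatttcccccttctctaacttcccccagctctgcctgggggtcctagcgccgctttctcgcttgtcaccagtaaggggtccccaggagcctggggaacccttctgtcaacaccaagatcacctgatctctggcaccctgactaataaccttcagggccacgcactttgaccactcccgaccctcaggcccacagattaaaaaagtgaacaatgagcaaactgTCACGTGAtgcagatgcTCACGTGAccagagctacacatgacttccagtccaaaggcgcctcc
*Ctsd* chr7:142387778-142388077 (-): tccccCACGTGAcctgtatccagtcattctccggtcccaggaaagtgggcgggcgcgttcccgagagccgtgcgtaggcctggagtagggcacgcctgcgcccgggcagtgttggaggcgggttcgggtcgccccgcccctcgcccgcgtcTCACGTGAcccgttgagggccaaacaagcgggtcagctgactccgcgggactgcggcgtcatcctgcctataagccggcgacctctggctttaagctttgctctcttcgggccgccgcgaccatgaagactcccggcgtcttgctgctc
*Lgmn* chr12:102439043-102439342 (-): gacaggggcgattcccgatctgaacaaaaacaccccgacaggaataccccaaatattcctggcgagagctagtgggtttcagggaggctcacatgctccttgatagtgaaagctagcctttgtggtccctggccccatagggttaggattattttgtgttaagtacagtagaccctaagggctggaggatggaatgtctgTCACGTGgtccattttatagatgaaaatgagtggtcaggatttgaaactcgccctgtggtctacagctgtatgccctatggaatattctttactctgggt
*Ctss* chr3:95526536-95526835 (+): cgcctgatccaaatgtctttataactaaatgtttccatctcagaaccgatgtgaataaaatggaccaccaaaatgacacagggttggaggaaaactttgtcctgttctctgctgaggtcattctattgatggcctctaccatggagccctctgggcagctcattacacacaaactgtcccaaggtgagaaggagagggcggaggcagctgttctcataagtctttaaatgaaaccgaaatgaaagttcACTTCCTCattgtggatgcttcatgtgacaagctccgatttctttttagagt
*Cst3* chr2:148875463-148875762 (-): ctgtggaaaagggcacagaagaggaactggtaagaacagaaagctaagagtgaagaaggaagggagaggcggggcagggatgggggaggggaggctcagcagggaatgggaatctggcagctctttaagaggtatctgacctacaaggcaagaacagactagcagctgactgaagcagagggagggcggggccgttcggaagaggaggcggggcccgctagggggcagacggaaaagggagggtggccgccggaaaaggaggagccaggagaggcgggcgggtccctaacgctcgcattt
In *Ctsd* the CACGTG runs began 245 and 98 bases before the start, and in this *Ctsa* promoter 1 run began 12 bases before it and the other 6 bases after it. In this *Lgmn* promoter it began 49 bases before the start. The other annotated start of *Ctsa* held none of the elements searched, and that of *Lgmn* only GGGCGG. Those other starts are at the outer 5′ end of each gene, whereas the starts shown for *Ctsa* and *Lgmn* lie inside the gene. The PU.1 letters of *Ctss* began 2 bases before its start. The *Cst3* window held none of these elements except GGGCGG.

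The libraries held 492 to 9846 cells, 21016 in all, with 2606149 to 35694246 UMIs and a median of 2268 to 5127 UMIs per cell. The 10 genes gave 3.44%, 4.37% and 5.42% of all UMIs in the sham, 7 dpi and 28 dpi vehicle libraries and 1.30%, 3.15% and 3.28% in those of PLX5622-fed mice. Cells carried 1 of 14 cluster numbers assigned by the authors, which were named here from marker genes. Since the clusters were made from these same counts, a difference between clusters is a description. The microglia cluster held 7018 cells and the MDM cluster 6791, and 5 of the 6 markers of each were highest there. Of the astrocyte and endothelial markers, 6 of 6 were highest in the cluster of that name, and of the monocyte markers 3 of 6. The 29, 61 and 126 microglia of the sham, 7 dpi and 28 dpi PLX5622 libraries and the 100 and 161 MDMs of the injured ones were few, and the 9 MDMs of the sham PLX5622 library were under the minimum of 20 cells and are left out. In all, 44 cell barcodes were shared between pairs of libraries.

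All 10 genes were highest in a myeloid cluster. Pooled over all libraries, *Ctsa*, *Ctsb*, *Ctsd*, *Ctsl* and *Ctsz* were highest in MDMs and *Ctsh*, *Ctss*, *Lgmn* and *Cst3* in microglia. At 7 dpi the order turned for *Ctsl* and *Ctsz*. *Ctsl* was at 2038 CPM in microglia and 1813 in MDMs under vehicle. In cells cut at random to 1000 UMIs, *Ctsz* averaged 2.95 UMIs in microglia and 2.61 in MDMs under vehicle, and 3.59 and 2.72 under PLX5622. For *Ctsc*, the level of 417 CPM (397 to 438) in monocytes did not differ beyond counting error from 415 (406 to 425) in microglia or 400 (381 to 419) in proliferating cells. The second cluster for *Cst3* was not myeloid. It was the astrocytes, at 14646 CPM (14487 to 14806) against 23710 (23638 to 23781) in microglia. The genes gave 4.8% to 8.30% of all UMIs in microglia and MDMs, 1.16% to 2.27% in monocytes and 0.312% to 1.70% in endothelial cells. Erythroid and proliferating cells came close to the 4.8% at 28 dpi under vehicle, with 4.74% and 4.76%. In sham vehicle they gave 1.86% and 0.537%. A list of 12 myeloid genes, described below, summed to 35958 and 36307 CPM in them at 28 dpi, and its part was not tested. Pooled over all libraries, erythroid cells were second for *Ctsb* (5734 CPM) and above MDMs for *Cst3* (7592 against 7211).

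**Figure D1:**
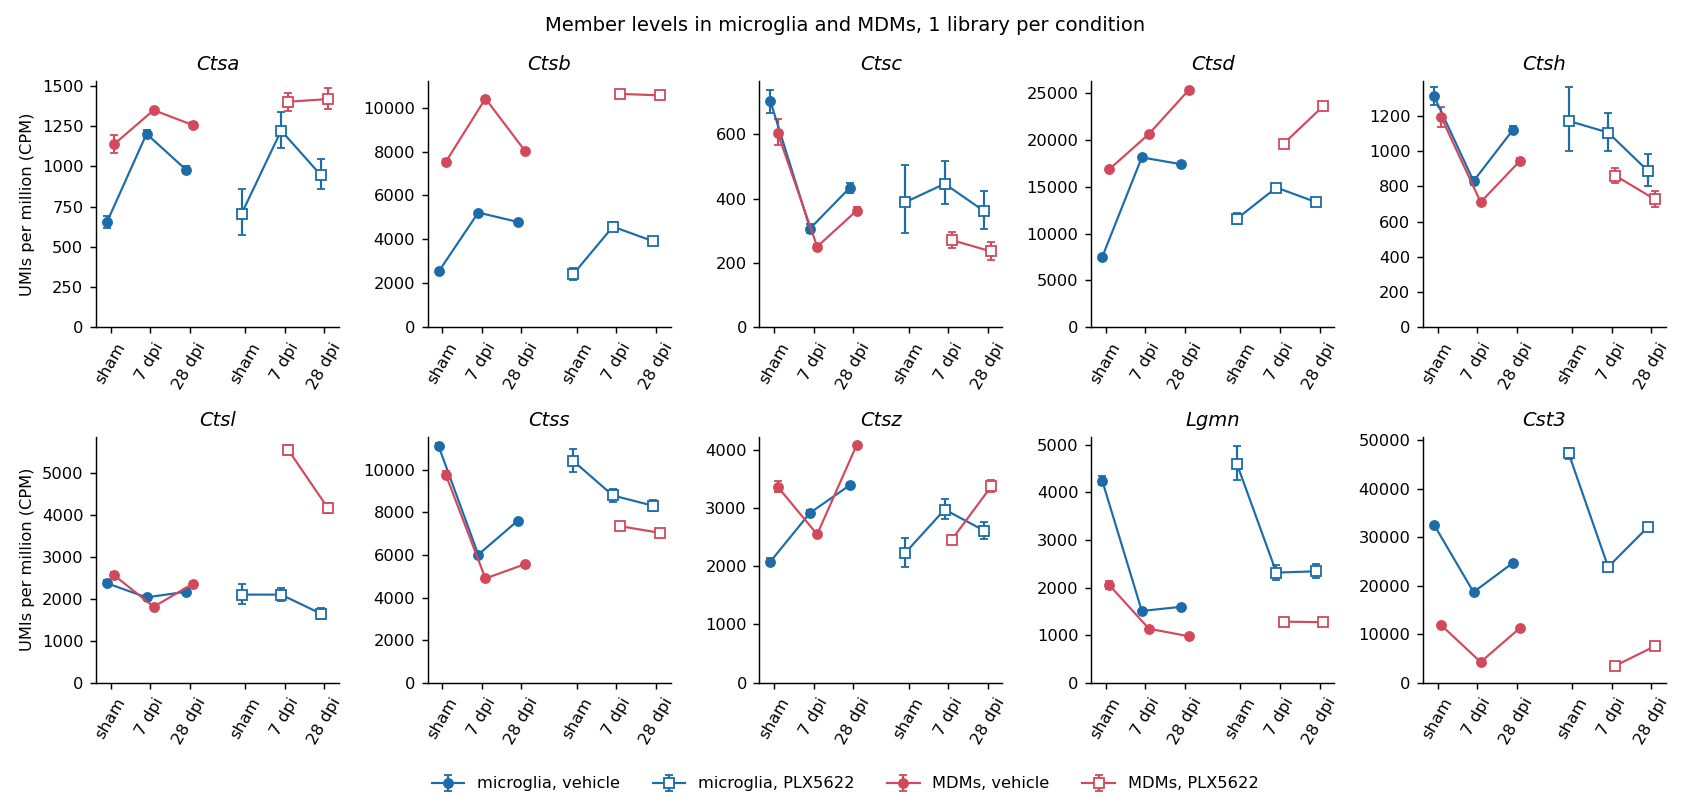
Levels of the 10 genes (CPM on a linear axis from 0, 1 panel per gene) in microglia (blue) and MDMs (red) of sham, 7 dpi and 28 dpi libraries, with vehicle as filled circles and PLX5622 as open squares. Each point is 1 pooled library and bars are exact Poisson 95% intervals. *Lgmn* and *Cst3* of both cell types were lower at 7 dpi than in sham, *Ctsb* and *Ctsd* were higher, and *Ctsl* of MDMs was highest at 7 dpi under PLX5622, at 5557 CPM.

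In microglia of vehicle-fed mice, injury was accompanied by more *Ctsa*, *Ctsb*, *Ctsd* and *Ctsz* and less *Ctsc*, *Ctsh*, *Ctss*, *Lgmn* and *Cst3* on the CPM scale at both times, where *Ctsh* and *Cst3* turned to slightly higher at 28 dpi under another scaling (TMM, explained with the ratios). *Ctsd*, the main aspartic protease of the lysosome, was at 7488 CPM (7371 to 7606) in sham, 18136 (18034 to 18238) at 7 dpi and, at 28 dpi, 17402 (17311 to 17494). *Ctsb*, a cysteine protease that cuts within proteins and also trims their carboxyl ends, was at 2537, 5222 and 4794 CPM. *Ctsa*, a serine carboxypeptidase that also holds beta-galactosidase and neuraminidase in a protective complex, was at 654, 1203 and 979 CPM. *Ctsz*, a cysteine carboxypeptidase, was at 2080, 2914 and 3387 CPM. For these 4 genes the sham library was below both injured ones by more than counting error.

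*Lgmn*, the asparaginyl endopeptidase that processes other cathepsins, went the other way, from 4248 CPM (4160 to 4337) in sham to 1508 (1479 to 1538) at 7 dpi, and then 1595 (1567 to 1623) at 28 dpi. *Ctss*, a cysteine protease that stays active at neutral pH and cuts the invariant chain of MHC class II, was at 11098, 6015 and 7616 CPM. *Ctsc*, the dipeptidyl peptidase that activates serine proteases of immune cell granules, was at 702, 307 and 433 CPM. *Ctsh*, an aminopeptidase, was at 1314, 830 and 1122 CPM, and *Cst3* was at 32618, 18683 and 24752 CPM. The levels of *Ctss*, *Ctsc*, *Ctsh* and *Cst3* at 28 dpi lay between those of sham and 7 dpi, whereas *Lgmn* stayed near its 7 dpi level. *Ctsl*, a cysteine endopeptidase, ranged only from 2038 to 2374 CPM.

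At 7 dpi, 4 of the 10 genes were past 2-fold against sham in microglia (*Ctsb* and *Ctsd* higher, *Ctsc* and *Lgmn* lower), where 25.5% of the 6623 genes with at least 100 UMIs were past 2-fold, 4.02% higher and 21.5% lower. The median log2 ratio was -0.44 over the 10 and -0.54 over all genes. At 28 dpi, 2 of the 10 were (*Ctsd* higher, *Lgmn* lower), against 16.1% of 7162 genes, 3.62% higher and 12.5% lower, with medians of -0.18 and -0.44. The median of all genes was thus below 0 on the CPM scale. edgeR's TMM factors, which by construction set most genes near 0, brought it to 0.09 and 0.06, and whether many genes were lower or the totals were made up differently cannot be told apart here. Under TMM the split became 4 higher and 0 lower at both times (*Ctsa*, *Ctsb*, *Ctsd* and *Ctsz*), where 12.2% and 8.91% of all genes were past 2-fold higher and 3.71% and 2.35% lower (16.0% and 11.3% in either direction). Relative to other genes, *Ctsd* stood at percentile 97.5 and *Ctsb* at 96.2 at 7 dpi, and *Lgmn* at 5.57 and, at 28 dpi, 3.06. *Cst3*, at percentiles 33.3 and 53.4, was near the middle.

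The log2 ratios of *Ctsb* over sham at 7 and 28 dpi were 1.04 (1.00 to 1.08) and 0.92 (0.88 to 0.96), and TMM gave 1.68 and 1.42. For *Ctss* it was -0.88 (-0.91 to -0.86) and -0.54 (-0.57 to -0.52) by CPM, and -0.25 and -0.04 with TMM. For *Cst3* it was -0.80 (-0.82 to -0.79) and -0.40 (-0.41 to -0.39), with -0.17 and 0.10 under TMM, so that its direction at 28 dpi turned with the scaling. The direction also turned for *Ctsl* at both times (-0.22 and -0.13 by CPM, 0.41 and 0.37 with TMM) and for *Ctsh* at 28 dpi (-0.23 and 0.27). *Lgmn* stayed lower, with -0.86 and -0.91 under TMM, as did *Ctsc* with -0.56 and -0.20. Between 7 and 28 dpi none of the 10 was past 2-fold in microglia (0.982% of 7740 genes were), and the ratios ran from -0.30 for *Ctsa* to 0.50 for *Ctsc*.

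**Figure D2:**
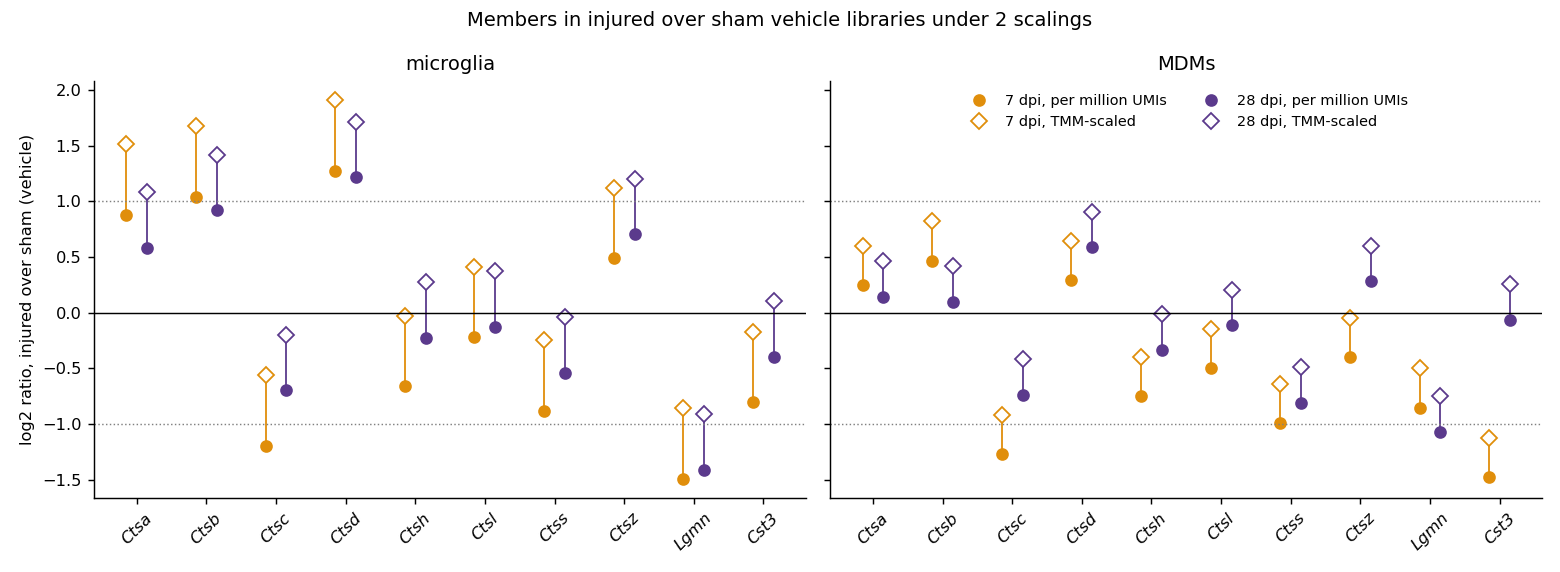
Log2 ratio of injured over sham vehicle libraries for the 10 genes in microglia (left) and MDMs (right), at 7 dpi (orange) and 28 dpi (purple). Filled circles are on the CPM scale, open diamonds are TMM-scaled, lines join the same ratio under both scalings, and dotted lines mark 2-fold. Every ratio moved up under TMM. In microglia *Ctsa*, *Ctsb*, *Ctsd* and *Ctsz* lay above 0 and *Ctsc* and *Lgmn* below 0 under both scalings, whereas *Ctsl* at both times and *Ctsh* and *Cst3* at 28 dpi turned from below 0 to above it, as *Ctsl* and *Cst3* of MDMs did at 28 dpi.

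Marker lists moved with these levels. The summed CPM of the 6 microglia markers in the microglia cluster was 12690 in sham, 4617 at 7 dpi and 4857 at 28 dpi. That of the 6 MDM markers there was 60.6, 4293 and 4264, with 1 of the 6 at 0 in sham and none at 0 after injury. The part of these lists in the microglia levels was not tested. Since cells and RNA of a cluster are counted together, fewer cells of a state and less RNA per cell cannot be told apart in these sums.

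The differences in *Ctsd* and *Ctss* were spread over many microglia. After each cell was thinned to 1000 UMIs, 28.3%, 75.1% and 73.6% of vehicle microglia in sham, 7 dpi and 28 dpi held at least 10 *Ctsd* UMIs, and 59.3%, 14.7% and 28.6% held at least 10 *Ctss* UMIs. An *Lgmn* UMI was found in 97.3% (95.5 to 98.5), 76.3% (74.3 to 78.1) and 76.1% (74.6 to 77.6) of thinned microglia. Without thinning, these shares were 98.7%, 94.8% and 89.8%, at median depths of 3178, 2902 and 1686 UMIs. In sham astrocytes, a non-myeloid cluster, 24.4% of thinned and 43.5% of all cells held an *Lgmn* UMI, at a median depth of 2024.

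In MDMs of vehicle-fed mice *Cst3* moved most. It was at 11895 CPM (11716 to 12076) in sham, 4267 (4238 to 4295) at 7 dpi and, at 28 dpi, 11340 (11284 to 11396). *Ctsd* was at 16867, 20637 and 25308 CPM, and *Ctsb* at 7533, 10416 and 8032. *Ctss* was at 9767, 4898 and 5567 CPM, *Lgmn* at 2051, 1135 and 977, and *Ctsc* at 605, 250 and 363. *Ctsz* was at 3363, 2546 and 4082 CPM, *Ctsl* at 2566, 1813 and 2368, *Ctsh* at 1195, 711 and 947, and *Ctsa* at 1139, 1351 and 1257. *Ctsl*, *Ctss*, *Ctsz*, *Ctsc*, *Ctsh* and *Cst3* were thus lowest at 7 dpi, *Ctsd* was highest at 28 dpi and *Lgmn* lowest there.

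At 7 dpi, 2 of the 10 were past 2-fold against sham, both lower, *Cst3* and *Ctsc* (-1.27), where 15.1% of 8303 genes were past 2-fold, 11% lower. *Ctss* was just inside the limit at -0.996 (-1.02 to -0.97). At 28 dpi, *Lgmn* alone was past 2-fold, at -1.07 (-1.13 to -1.01), against 7.16% of 7714 genes, 5.63% lower. The median over the 10 was -0.63 at 7 dpi and -0.09 at 28 dpi, and that over all genes -0.25 at both times, which TMM moved to 0.10 and 0.07. Under TMM *Cst3* alone was past 2-fold at 7 dpi, at -1.12 (13.5% of all genes were), and none at 28 dpi (5.68%), where *Lgmn* was at -0.75. *Cst3* and *Ctsl* at 28 dpi turned from -0.07 and -0.12 to 0.25 and 0.21 with TMM. The sham MDMs were 185 cells in which the microglia markers summed to 3803 CPM, against 1136 and 1673 at 7 and 28 dpi, and the MDM markers to 10283, against 37904 and 21789. Both lists moved with each of these ratios, and their part was not tested.

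*Cst3* of MDMs was higher at 28 than at 7 dpi in both diets, whose libraries are separate pools. In vehicle MDMs its log2 ratio of 28 over 7 dpi was 1.41 (1.40 to 1.42), the only 1 of the 10 genes past 2-fold, where 6.89% of 9140 genes were. In PLX5622 MDMs it went from 3503 CPM (3415 to 3591) to 7540 (7390 to 7691), a log2 ratio of 1.11 (1.06 to 1.15), again the only 1 of the 10, against 4.56% of 3203 genes. The share of thinned MDMs with at least 10 *Cst3* UMIs went from 12.2% to 62.5% under vehicle and from 12.1% to 39.3% under PLX5622. *Ctsz* was higher at 28 dpi too, with log2 ratios of 0.68 (0.66 to 0.70) and 0.46 (0.40 to 0.52), as was *Ctsd*, with 0.29 (0.29 to 0.30) and 0.27 (0.25 to 0.29). *Ctsb* went from 10416 to 8032 CPM under vehicle and stayed at 10630 and 10562 under PLX5622.

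Within a library, MDMs had more *Ctsb* and less *Cst3* and *Lgmn* than microglia. In the sham vehicle library 4 of the 10 genes were past 2-fold, *Ctsb* at 1.57 (1.52 to 1.62) and *Ctsd* at 1.17 (1.14 to 1.2) higher in MDMs, and *Lgmn* at -1.05 (-1.11 to -0.99) and *Cst3* at -1.46 (-1.48 to -1.43) lower, where 16.4% of 4500 genes were past 2-fold. At 7 dpi only *Cst3* was, at -2.13 (-2.14 to -2.12), against 11.9% of 8735 genes, and its percentile among them was 0.664. *Ctsb* was just short of it at 0.996 (0.98 to 1.01). At 28 dpi *Cst3* was again the only 1, at -1.13 (-1.14 to -1.12), against 6.3% of 8473 genes, and under TMM it was at -0.95. The difference in *Ctsd* between both clusters was smaller in the injured libraries, 0.19 (0.18 to 0.20) at 7 dpi and, at 28 dpi, 0.54 (0.53 to 0.55). In the PLX5622 libraries 3 of the 10 were past 2-fold at both times, against 22.1% of 2369 genes at 7 dpi and 19.3% of 1950 at 28 dpi. *Cst3* was at -2.77 (-2.82 to -2.72) and -2.09 (-2.13 to -2.05), *Ctsb* at 1.21 and 1.43, and *Ctsl* at 1.40 (1.30 to 1.51) and 1.34 (1.22 to 1.45), or 0.58 and 0.88 in thinned cells. In sham, *Ctsc*, *Ctsh* and *Ctss* were slightly lower in MDMs by CPM (-0.22, -0.14 and -0.18) and higher with TMM (0.07, 0.14 and 0.10).

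Cystatin C was also set against the 6 cysteine cathepsins it can inhibit (*Ctsb*, *Ctsc*, *Ctsh*, *Ctsl*, *Ctss* and *Ctsz*). UMIs are tags of transcripts, so this ratio compares libraries and clusters with each other and is not a ratio of proteins. It has no library total in it and does not depend on the scaling. It does depend on how cells are weighted, since deep cells give more of the summed UMIs. In MDMs at 7 dpi under PLX5622, thinned cells averaged 4.71 *Cst3* and 4.19 *Ctsl* UMIs per 1000, against 3503 and 5557 CPM in the sums. There, *Ctsl* of 13 cells alone made up 6219 of the 47377 cysteine cathepsin UMIs. The ratio was not recomputed in thinned cells or without those 13. Microglia held 162 *Cst3* UMIs (160 to 164) per 100 cysteine cathepsin UMIs in sham, 108 (107 to 109) at 7 dpi and, at 28 dpi, 127 (126 to 128). MDMs held 47.5 (46.7 to 48.4), 20.7 (20.5 to 20.8) and 53.1 (52.8 to 53.4). Under PLX5622 the values were 253, 119 and 181 in microglia, and 12.9 (12.6 to 13.3) and 28.9 (28.2 to 29.5) in MDMs at 7 and 28 dpi. In each of these cell types and diets with values at both times, the ratio was lower at 7 than at 28 dpi. Astrocytes of PLX5622-fed mice held 1099, 567 and 690. Those of vehicle-fed mice held 578, 102 and 161, and their myeloid transcripts moved with this, as given below.

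**Figure D3:**
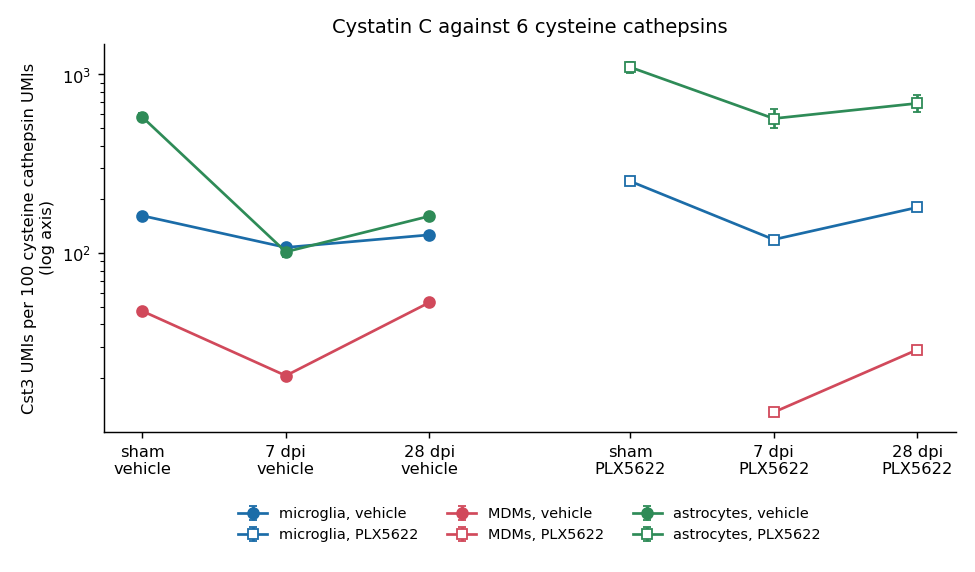
*Cst3* UMIs per 100 UMIs of 6 cysteine cathepsins (log axis) in microglia (blue), MDMs (red) and astrocytes (green), with vehicle libraries on the left as circles and PLX5622 libraries on the right as squares. Each point is 1 pooled library and bars are exact 95% intervals, which leave out the variation between cells. Deep cells count for more in these sums. In each line the 7 dpi value is the lowest, down to 20.7 in vehicle MDMs and 12.9 in PLX5622 MDMs.

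In the microglia that remained under PLX5622, none of the 10 genes was past 2-fold against vehicle at 7 dpi or 28 dpi, where 6.77% of 5616 and 7.5% of 6359 genes were, nor in sham, where 8.93% of 3304 were. *Lgmn* was at 2314 CPM (2164 to 2471) against 1508 at 7 dpi and at 2341 (2198 to 2490) against 1595 at 28 dpi, log2 ratios of 0.62 (0.52 to 0.72) and 0.55 (0.46 to 0.65). *Ctss* was at 8794 CPM (8499 to 9096) against 6015, and 8320 (8050 to 8598) against 7616. *Ctsd* was at 14913 against 18136 and 13360 against 17402, while in sham it was higher under PLX5622, at 11579 CPM (11025 to 12153) against 7488. *Lgmn* and *Cst3* of PLX5622 microglia were both lower at 7 dpi than in their own sham library of 29 microglia. Each had a log2 ratio of -0.99 on the CPM scale, to which TMM adds 0.49. Both were lower by CPM under vehicle too. In these PLX5622 microglia the MDM markers summed to 14.1, 2014 and 935 CPM in sham, 7 dpi and 28 dpi, below the vehicle values after injury.

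In MDMs, PLX5622 was accompanied by more *Ctsl* and *Ctss*. The cells also differed in depth, with a median of 15945 UMIs under PLX5622 against 5777 under vehicle at 7 dpi, and 6843 against 3875 at 28 dpi. In cells thinned to 1000 UMIs, *Ctsl* averaged 4.19 against 1.68 UMIs at 7 dpi and 2.74 against 2.32 at 28 dpi. *Ctss* averaged 7.22 against 4.92 and 6.77 against 5.84. The part of depth in the ratios of summed counts was not tested. *Ctsl* was at 5557 CPM (5447 to 5669) against 1813 (1794 to 1832) at 7 dpi, a log2 ratio of 1.62 (1.58 to 1.65), and at 4170 (4059 to 4283) against 2368 (2343 to 2394) at 28 dpi, a ratio of 0.82 (0.77 to 0.86). It was the only 1 of the 10 past 2-fold at 7 dpi, where 4.0% of 8295 genes were, and none was at 28 dpi, where 4.81% of 7635 were. *Ctss* was at 7354 against 4898 CPM at 7 dpi and 7041 against 5567 at 28 dpi, ratios of 0.59 (0.56 to 0.61) and 0.34 (0.31 to 0.37). *Ctsc* was at 0.11 and -0.62. *Cst3* was at -0.28 at 7 dpi, which turned to 0.08 when cells were thinned to 1000 UMIs, and at -0.59 at 28 dpi, where thinned cells gave -0.49. At 28 dpi *Ctsb* was at 0.40 (0.37 to 0.42) and *Lgmn* at 0.38 (0.31 to 0.45). *Ctsa*, *Ctsb*, *Ctsd*, *Ctsz* and *Lgmn* were within 0.18 of 0 at 7 dpi.

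Most of the added *Ctsl* sat in a few cells. Of the 100 MDMs at 7 dpi under PLX5622, 13 (13%, 7.11 to 21.2) had at least 10 *Ctsl* UMIs per 1000 and held 64.1% of the *Ctsl* UMIs of the cluster. At 28 dpi under PLX5622, 8 of 161 cells (4.97%, 2.17 to 9.56) held 38.7%. In the vehicle libraries such cells were 4 of 185 in sham, 24 of 3023 at 7 dpi (0.794%, 0.509 to 1.18) and 17 of 3313 at 28 dpi, and held 2.34%, 6.53% and 1.76%. These cells were picked by the value itself, after it was seen, so their share is a description. Without them *Ctsl* was at 2414 CPM under PLX5622 and 1709 under vehicle at 7 dpi, and the log2 ratio went from 1.62 to 0.50 (0.45 to 0.55), inside 2-fold. At 28 dpi it went from 0.82 to 0.27 (0.21 to 0.32).

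The 13 cells also had *Mfge8*, which encodes a bridge for the uptake of dying cells, at 1700 CPM (1557 to 1854) against 237 (212 to 263) in the other 87, and 12 of the 13 held a UMI of it. At 28 dpi under PLX5622 it was at 9596 against 836 CPM, in 8 of 8 cells and 46 of 153. In the 24 such cells of the 7 dpi vehicle library it was at 1073 against 173 CPM. In the 17 of the 28 dpi vehicle library it was at 207 CPM (99.3 to 381) against 75.7, from 10 UMIs in 5 cells. *Mfge8* was named here after its values were seen, as 1 of the genes highest in these cells by fold. *Ctsb* and *Ctsd* differed less between the 13 cells and the rest, at 12773 against 10182 and 24933 against 18475 CPM. In the PLX5622 libraries these cells were deeper than the rest and more often held markers of non-myeloid clusters. The median depth was 19581 UMIs in the 13 cells and 15134 in the other 87, and 17742 and 6646 at 28 dpi, whereas in the 28 dpi vehicle library the 17 cells were shallow, at 1125 against 3879. At least 3 UMIs of markers of non-myeloid clusters were found in 9 of the 13 cells and 31 of the 87, and in 6 of the 8 and 29 of the 153. In the vehicle libraries that share was not higher in such cells, with 0 of 4 against 17.7% of the rest in sham, 4.17% against 6.94% at 7 dpi and 5.88% against 7.74% at 28 dpi. The part of these markers was not tested. When all cells with 3 or more such UMIs were left out of both libraries, the *Ctsl* ratio was 1.05 at 7 dpi and 0.05 at 28 dpi.

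**Figure D4:**
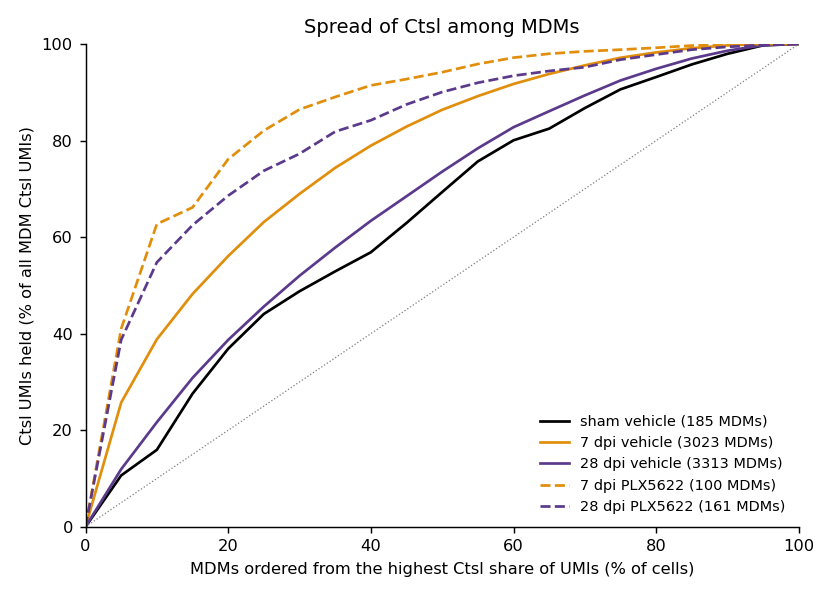
Cumulative share of the *Ctsl* UMIs of the MDM cluster (percent) against the share of its cells (percent), with cells ordered from the highest *Ctsl* share of UMIs, 1 line per library, solid for vehicle and dashed for PLX5622. The dotted diagonal is an even spread. Both PLX5622 lines rise most steeply: 13 of 100 cells held 64.1% of *Ctsl* UMIs at 7 dpi, whereas the lines of the sham and 28 dpi vehicle libraries are the flattest.

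Among single cells, *Ctsb* and *Ctsd* varied together. Over thinned cells of 1 library, their Pearson r was 0.45, 0.56 and 0.60 in vehicle microglia of sham, 7 dpi and 28 dpi (548, 1984 and 3068 cells) and 0.49, 0.25 and 0.54 in vehicle MDMs (175, 3008 and 3258 cells). *Ctsb* and *Cst3* had an r of -0.22, -0.22 and -0.04 in those MDMs, and -0.24 in the 150 thinned MDMs at 28 dpi under PLX5622. Cells of a library share its preparation, and these values describe the libraries.

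Outside the myeloid clusters, *Cst3* was an astrocyte transcript in every library. Its level in astrocytes was 12547, 10400 and 17450 CPM under vehicle and 15787, 17283 and 16698 under PLX5622. A list of 12 myeloid genes showed how much myeloid RNA each cluster carried. It summed to 1974, 22846 and 21299 CPM in vehicle astrocytes and to 188, 2371 and 1135 in those of PLX5622-fed mice. At the ratio of *Cst3* to this list in microglia and MDMs, the myeloid RNA would have brought 116 CPM of *Cst3* to sham PLX5622 astrocytes, against the 15787 measured. These were the astrocytes with the least of the list. In injured vehicle astrocytes, with 22846 and 21299 CPM of the list, the same ratio would give a much larger part of the *Cst3* measured. In astrocytes with fewer than 3 UMIs of the list, *Cst3* was at 12122 CPM (11865 to 12384) in sham, 13258 (11994 to 14620) at 7 dpi and, at 28 dpi, 20242 (19446 to 21062) under vehicle. Choosing such cells also chooses shallow ones.

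*Ctsd* in vehicle astrocytes was close to what the myeloid list gives after injury. It was at 835 CPM in sham, 10824 at 7 dpi and 10483 at 28 dpi under vehicle, where the ratio in microglia and MDMs gives 448, 10732 and 10302. In astrocytes with fewer than 3 myeloid UMIs it was at 508 (456 to 564), 1088 (749 to 1528) and 1430 (1224 to 1660). Under PLX5622 it was at 619, 1619 and 1755 CPM, where the ratio gives 34.2, 1169 and 535, and in cells with fewer than 3 myeloid UMIs at 595 (533 to 662), 915 (734 to 1127) and 1046 (882 to 1231). In these cells of both diets, both injured libraries were above sham by more than counting error. Cells with fewer than 3 myeloid UMIs can still hold some myeloid RNA, and each such UMI gives more CPM in a shallow cell. The median depth of all astrocytes in sham, 7 dpi and 28 dpi was 2024, 2057 and 1149 UMIs under vehicle. Under PLX5622 it was 1594, 1395 and 1054. The part of the remaining myeloid RNA and of depth in these *Ctsd* levels was not tested. *Ctsd* of T cells did the same as that of all astrocytes, with 673, 8436 and 8437 CPM under vehicle against 943 (653 to 1317) and 1181 (981 to 1410) in injured T cells with fewer than 3 myeloid UMIs. *Ctss* in astrocytes was at 312, 2694 and 3163 CPM under vehicle but at 8.53, 324 and 79.2 under PLX5622. Against sham, 6 of the 9 genes with at least 100 UMIs were past 2-fold higher in 7 dpi vehicle astrocytes, where 15.8% of 1496 genes were, and 2 of 7 under PLX5622 (*Ctsb* and *Ctsd*), against 11.7% of 1048.

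Other clusters had members of their own. *Ctsh* was at 615 CPM (530 to 709) in sham vehicle and 437 (385 to 494) in sham PLX5622 endothelial cells, where the myeloid list would give 40.8 and 3.45 CPM, and at 5.12 CPM in sham PLX5622 astrocytes. A *Ctsh* UMI was found in 47.4% (35.8 to 59.2) of thinned endothelial cells of the sham vehicle library and 3.56% (1.55 to 6.89) of its thinned astrocytes, and without thinning in 78.0% and 5.16%, at median depths of 3023 and 2024. *Ctsl* was at 1276 CPM (1134 to 1430) in the pericyte or fibroblast cluster of that library, against 63.2 from the myeloid list, and at 756 (687 to 830) in sham PLX5622 astrocytes, against 6.33. *Cst3* of leptomeningeal cells was at 2833 CPM (2656 to 3018) in sham and 6293 (5943 to 6658) at 28 dpi under vehicle, where the myeloid list gives 363 and 2678 CPM. The list itself summed to 742 and 7658 CPM there, and its part in the higher level was not tested.

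**Figure D5:**
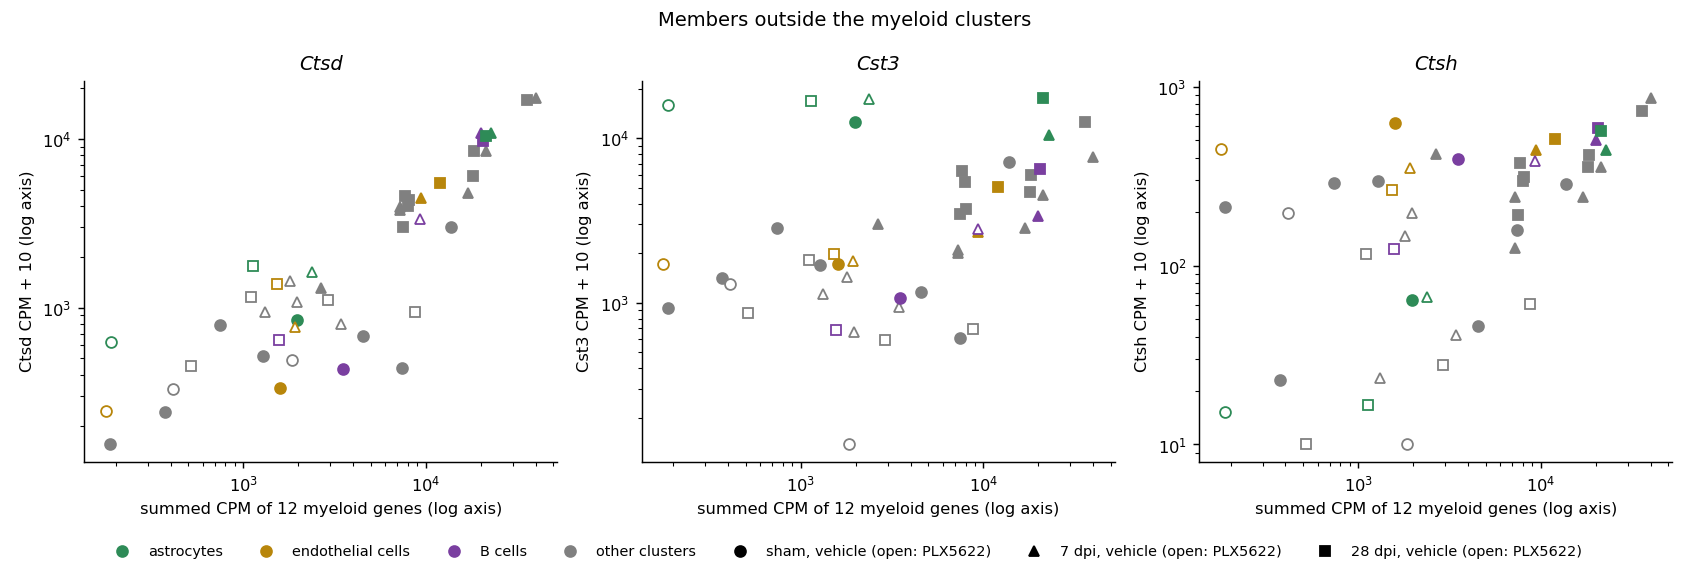
Levels of *Ctsd*, *Cst3* and *Ctsh* (CPM + 10, log axis) against the summed CPM of 12 myeloid genes (log axis), 1 point per cluster and library. Microglia, MDMs, monocytes and proliferating cells are left out. Neutrophils, which are myeloid themselves, are among the grey points. Points are colored by cluster, with shapes for sham (circle), 7 dpi (triangle) and 28 dpi (square) and open symbols for PLX5622. The highest *Ctsd* levels were those of vehicle clusters after injury with the most myeloid RNA. *Cst3* of astrocytes was between 10400 and 17450 CPM at any level of the list, with the part from myeloid RNA not taken off. *Ctsh* of endothelial cells was at 437 CPM in sham PLX5622, where the list was lowest.

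Other genes of the pathway were read from lists of proteases, inhibitors, partners, sorting receptors and transcription factors. Of 11 further lysosomal proteases, 6 had at least 100 UMIs in microglia at 7 dpi and sham together. Over all genes tested, 4.02% at 7 dpi and 3.62% at 28 dpi were past 2-fold higher and 21.5% and 12.5% lower (12.2% and 8.91% higher, 3.71% and 2.35% lower under TMM). *Dpp7*, a dipeptidyl peptidase, was past 2-fold higher (1.07, 0.76 to 1.40), and the cysteine cathepsins *Ctsf* (-1.04, -1.2 to -0.89) and *Ctso* (-1.17, -1.45 to -0.90) were past 2-fold lower, though not with TMM (-0.41 and -0.54). All 3 of the 8 other inhibitors that had enough UMIs were past 2-fold higher in microglia at both times, under CPM and TMM alike. *Cst7*, cystatin F, which acts on cathepsins in the lysosome, went from 54.4 CPM in sham to 710 at 7 dpi and 951 at 28 dpi, log2 ratios of 3.71 (3.44 to 3.99) and 4.13 (3.86 to 4.41). *Cstb*, stefin B of the cytosol, went from 69.7 to 233 and 242 CPM, and *Serpinb6a* from 10.0 to 43.5 and 31.3. These 3 inhibitors were thus higher after injury in the microglia in which *Cst3* was lower by CPM, or near 0 with TMM (-0.17 and 0.10).

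In MDMs *Cst7* was at 542, 255 and 1047 CPM in sham, 7 dpi and 28 dpi, lowest at 7 dpi like *Cst3*. Its log2 ratio of 28 over 7 dpi was 2.04 (1.99 to 2.08). *Ctsf* of MDMs was at 140, 30.8 and 66.4 CPM. Among 6 partners and substrates in microglia, *Glb1*, the beta-galactosidase held by Ctsa, was past 2-fold higher at 7 dpi (1.00, 0.74 to 1.27), and *Cd74*, the invariant chain cut by Ctss, was so at 28 dpi (2.48, 2.13 to 2.84) from a low level of 33.9 CPM in sham to 189. The sorting receptors and the transcription factors (*Tfeb*, *Tfe3* and *Mitf*) with enough UMIs were all inside 2-fold in microglia at both times on the CPM scale. Under TMM 1 of the 3 sorting genes, *Gnptab*, which helps to make the mannose 6-phosphate tag, was past 2-fold higher at both times (1.09 and 1.31), as were 3 of the 6 partners at 7 dpi and 2 at 28 dpi. For *Tfeb* the log2 ratios were -0.49 (-0.99 to 0.02) and 0.01 (-0.45 to 0.50) by CPM, and 0.14 and 0.51 with TMM.

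Across 66 cluster and library sums of at least 20 cells, the genes most like each member were named by Pearson r of log2(CPM + 10) over 7197 genes. The sums share libraries, myeloid RNA and depth, so r is a description. *Grn*, progranulin, was among the 3 nearest genes of *Ctsa*, *Ctsb*, *Ctsd* and *Ctsz*, with an r of 0.91 to 0.95, and *Trem2* was the nearest of *Ctsd* (0.94). *Ctss* lay nearest to *C1qc* (0.94), *C1qb* and *Csf1r*. *Ctsl* was nearest to the lysosomal membrane gene *Lamp1* (0.87), *Ctsc* to *Lat2* (0.90) and *Cst3* to *Asph* (0.87). *Ctsh* had the loosest match, *Ehd4* at 0.82. Among the 10 themselves, r was highest for *Ctsa* with *Ctsz* (0.95) and lowest for *Ctsc* with *Ctsl* (0.48).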

How the data were processed

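The authors made 10x libraries of dissociated cord, aligned the reads and counted UMIs with Cell Ranger, and filtered and clustered cells with Seurat. The genome build of the single-cell counts is not given in the sources used here, beyond GRCm38 and mm10 in the submitters' processing notes. The deposited values are UMI counts per gene and cell, whole numbers without normalization, with a cluster number per cell. From these counts, UMIs were summed per cluster and library. Each CPM carries an exact 95% interval from the Poisson distribution, each log2 ratio of CPM the exact conditional binomial interval, and each share of cells the Clopper-Pearson interval. Genes with at least 100 UMIs in the 2 sums together gave the background of each comparison. "Past 2-fold" means a log2 ratio at or past 1 or -1.

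All 10 genes, the pathway lists and the 3 genes nearest to each member were named by rule. The members and lists were chosen with earlier results of these data known. The alternatives rescaled the sums with TMM or with the size factors of DESeq2, left the members or ribosomal protein genes out of the totals, gave every cell the same weight, thinned cells to 1000 UMIs, or kept only cells that had 500 genes or more or under 3 UMIs of markers of non-myeloid clusters. Leaving out cells rich in *Ctsl* was added after seeing the data. No doublet caller was run, and the marker filter stands in for it. The authors' methods set an upper limit of genes per cell that some cells of the deposited table pass, and the table was used as deposited. Steps were tested on simulated data, in which sums were drawn from the Poisson distribution without added variation between cells. The 14 bulk samples were not analysed here. Scaling factors came from edgeR 4.0.16 and DESeq2 1.42.0 under R 4.3.3. All else was done in Python 3.11.15 with pandas 2.3.3, scipy 1.17.1, numpy 2.4.6 and matplotlib 3.10.9. The genes nearest to *Lgmn* are not reported here.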

Additional observations from a re-analysis of the deposited data

How the results depend on the processing

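No paired analysis was possible because each condition had 1 library, and for the same reason no library could be left out. Over 13 comparisons and 8 alternatives, the count of the 10 genes past 2-fold stayed within 1.5 times its value in 87 of 104 cases and moved in 17. The count does not show which genes these were. In microglia at 7 dpi over sham it was 4 by CPM and by TMM, but not for the same genes. Log2 ratios past 2-fold left their counting interval in 86 cases and stayed inside in 50. Levels of *Cst3*, *Ctsl* and *Ctsh* outside microglia and MDMs did so in 60 and 39 when only cells under 3 myeloid UMIs were kept. Shares of cells with a UMI moved in 34 cases and stayed in 10 without thinning. In microglia at 28 dpi over sham the count moved from 2 to 4 with TMM and with DESeq2's factors and to 1 with each cell weighted alike. In MDMs over sham at 7 dpi it moved from 2 to 1 with TMM and with DESeq2's factors, and to 4 with each cell weighted alike and without cells carrying markers of other clusters. At 28 dpi it moved from 1 to 0 with TMM and with DESeq2's factors. For MDMs over microglia it moved in sham from 4 to 2 with each cell weighted alike and with thinned cells, at 7 dpi from 1 to 2 with TMM, with DESeq2's factors, with thinned cells and with cells of at least 500 genes, and at 28 dpi from 1 to 0 with TMM and with DESeq2's factors. Leaving out cells with at least 10 *Ctsl* UMIs per 1000, an alternative chosen after seeing the data, moved the count for MDMs under PLX5622 over vehicle at 7 dpi from 1 to 0. The cause of the other moves was not tested. The sums of PLX5622 microglia rest on 29 to 126 cells.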
